A study of Homo sapiens with 12 samples.

Results

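Of the 2680 genes listed for MCF-10A cells, 29 carried reads in constriction replicate 1 and almost none elsewhere, and these 29 genes are described here. They were chosen by their read counts. A gene was taken if it had 50 or more reads in constriction replicate 1 and at most 3 reads in each of the 2 control libraries. The read limits were met by 50 genes, and 21 of these were left out because they are processed pseudogenes, miRNAs, misc_RNAs or snRNAs, or because their names start with LINC or contain -AS. Because the reads of constriction replicate 1 and of both controls chose the genes, the difference between those libraries is given as a description, and the calls of a fit over all listed genes are given only as counts that support nothing. The limits did not name constriction replicate 2, but its reads entered the comparison by which genes were listed, so they are not independent of the choice. The biotype was used only to leave genes out.

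MCF-10A is a breast epithelial cell line that is not malignant. In the constriction group, a pressure head of 7 to 33 cmH2O pulled the cells through channels with a width and a height of 5 µm and a length of 150 µm, and their RNA was sequenced after poly A enrichment, with 2 libraries. The control group was MCF-10A cells that did not pass the channels, also with 2 libraries. The same design was used for MDA-MB-231, a triple negative breast cancer cell line, and for LM2, a line derived from it, which makes 12 libraries in all. Suspensions of many cells gave each library, so fewer cells that carry an RNA and less of that RNA in each cell cannot be told apart. The study's supplement lists unequal cell concentrations and RNA amounts for the MCF-10A libraries, also between the constriction replicates. Their part in the differences between libraries was not tested.

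A capillary is narrower than most nuclei, and a cell that passes it deforms its nucleus, which can open the nuclear envelope for a short time. A read count per gene gives the RNA of a gene summed over all cells of a library. Long intergenic and antisense RNAs are mostly low in abundance, do not encode proteins and are often restricted to few cell types. Homeobox genes such as HOXA7 encode transcription factors that set position along the body axis and remain active in some adult epithelia.

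The MCF-10A libraries held between 29978695 and 46436989 reads in all, with the smallest total in constriction replicate 1. The table holds only part of the genes, selected for a difference between the groups. In constriction replicate 1, 2489 of the 2680 listed genes (92.9%) had 0 reads, against 29 (1.08%) and 32 (1.19%) in the control libraries. The 191 listed genes above 0 in constriction replicate 1 had a median of 407 reads, and 158 of them had 50 or more. In constriction replicate 2, 2478 listed genes (92.5%) had 0 reads, and the other 202 had a median of 11 reads. In the control libraries the genes above 0 had medians of 18 and 19 reads. The part of these differences in the pattern of the 29 genes was not tested. Of 54 marker genes in 9 lists, 7 were listed in the MCF-10A table, all with 0 reads in constriction replicate 1, and none was among the 29. No marker of basal mammary epithelium was listed, so the table holds no check of the cell line by those markers.

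The 29 genes had 10951 reads in constriction replicate 1, 27 in constriction replicate 2, 23 in control replicate 1 and 21 in control replicate 2. As a rate in reads per 1000000 of the library, this was 365, 0.761, 0.637 and 0.452. The reads per gene in constriction replicate 1 ran from 187 to 913, with a median of 286. In constriction replicate 2, 28 of the 29 genes had 0 reads, and the exception was CDRT4 with 27. In the controls, 13 genes had 0 reads in both libraries, and those 13 also had 0 reads in constriction replicate 2. The other 16 genes shared 44 control reads between them. The high reads of constriction replicate 1 and the low reads of the controls follow from the choice of the genes, and constriction replicate 2 lay at or below the controls, at 0 reads, for all but CDRT4.

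**Figure D1:**
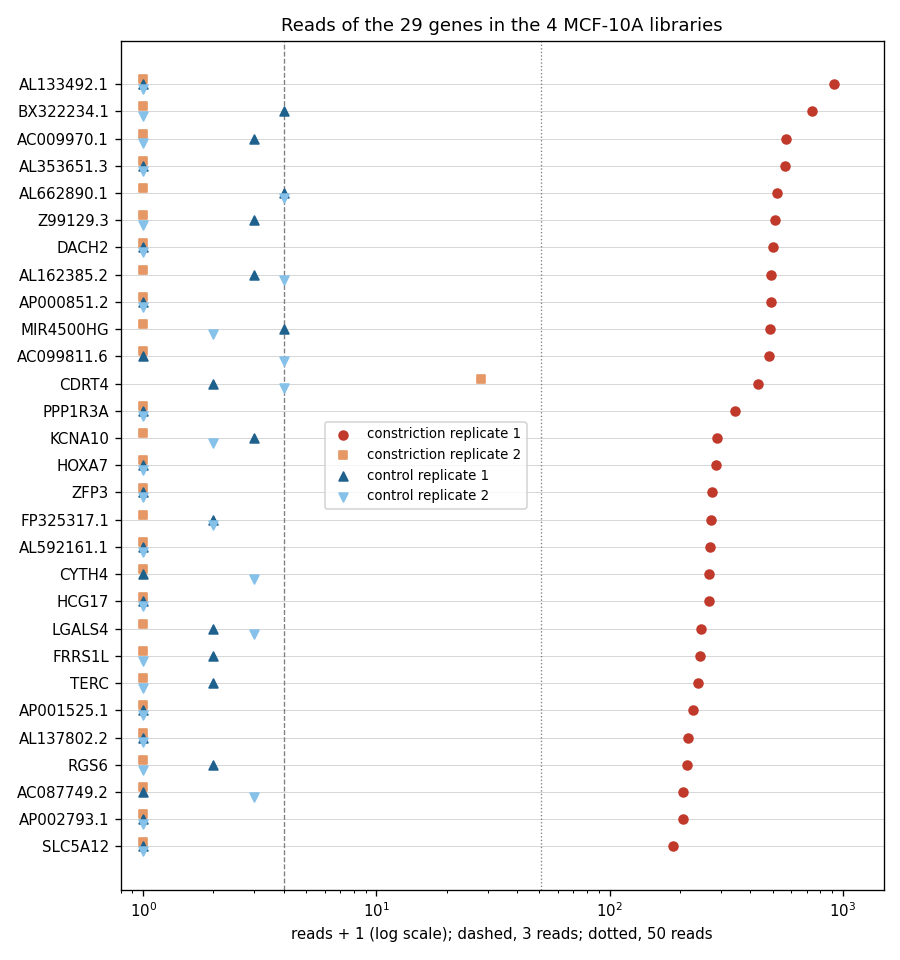
Reads plus 1 (log axis) of the 29 genes in the 4 MCF-10A libraries, with 1 point per library; the dashed and dotted lines mark the limits of 3 and 50 reads. Constriction replicate 1 lies between 187 and 913 reads for all genes, and the other libraries lie at 0 to 3 reads apart from CDRT4, which had 27 reads in constriction replicate 2.

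Where a gene was at 0, up to 3 reads are allowed by counting error, and in constriction replicate 2 this limit is a normalised count (reads over the library's size factor) of 3.11. Against this limit, the 28 genes with 0 reads were at least 72.6-fold (SLC5A12) to at least 354-fold (AL133492.1) higher in constriction replicate 1 than in the second replicate, with a median bound of 109-fold. Such limits, and the intervals given below, cover counting error only. For these 28 genes no fold is given between constriction replicate 2 and the controls, because both were at or under 3 reads. On the scale of log2(mean normalised count + 1), the 29 genes were 6.03 to 9.11 higher in constriction than in control cells. The standard errors were 1.34 to 1.68 from 2 libraries per group, with a median of 1.44. Where 1 constriction library is at 0 reads, the constriction part lies near 1.44 whatever the other library holds. Such a standard error does not measure the spread between the replicates. With 10 in place of 1 added, the 29 genes were 3.62 to 5.81 higher. With constriction replicate 2 alone as the constriction group, 15 of these differences lay below 0, 13 were 0 and 1 lay above 0.

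Both constriction libraries lay above both control libraries in normalised counts for 1 of the 29 genes, CDRT4, and for 2.28% of all listed genes. With edgeR's quasi-likelihood test and Benjamini-Hochberg adjustment over the listed genes, all 29 were called higher after transit, and 2.54% of the listed genes were. The same reads chose the genes and the table, so nothing is read from this count. With the replicate number as a block, 0 of the 29 genes and 1 of all 2680 listed genes were called higher. Without constriction replicate 1, edgeR called 1 of the 29, CDRT4, and 11 of all listed genes. Without control replicate 1 or without control replicate 2 it called 0 of the 29 and 1 of all, and without constriction replicate 2 it called 29 and 142.

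In constriction replicate 2, 96.6% of the 29 genes and 92.5% of all listed genes had 0 reads. Only 147 listed genes had a higher mean after transit, so the second share is no baseline for genes chosen as high. Among the other 118 listed genes, of all biotypes and names, whose mean normalised count was higher after transit, 40 (33.9%) had 0 reads in constriction replicate 2, 74 had more than 3, and their median was 25 reads. For each of the 118, constriction replicate 1 held the larger number of reads of the pair. The 21 genes past the read limits that were left out by biotype or name had 80 to 579 reads in constriction replicate 1, and 17 of them had 0 reads in constriction replicate 2.

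**Figure D2:**
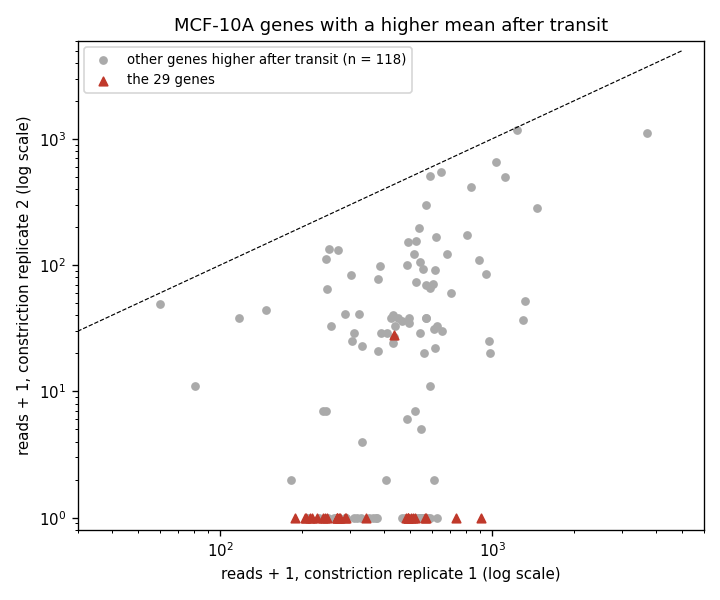
Reads plus 1 in constriction replicate 1 (x) and constriction replicate 2 (y), both on log axes, for the 147 listed MCF-10A genes with a higher mean after transit; the dashed line marks equal reads. The 29 genes (triangles) lie on the floor of the plot apart from CDRT4, whereas 78 of the 118 other genes (grey) had reads in both libraries.

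The same read limits were applied to each of the other MCF-10A libraries in turn, with the same biotypes and names left out. For constriction replicate 2 no listed gene had 50 or more reads together with at most 3 in both controls. With control replicate 1 as the library and at most 3 reads in both constriction libraries, 368 genes met the limits, and 349 of them (94.8%) had more than 3 reads in control replicate 2. With control replicate 2, 255 genes met the limits and 252 (98.8%) had more than 3 reads in control replicate 1. For constriction replicate 1 this share was 1 of 29 (3.45%). In the controls 139 genes reached 50 reads in both libraries, and in the constriction libraries none of the 29 did. These shares lay near those of all listed genes, of which 96.3% and 95.3% had more than 3 reads in control replicates 1 and 2 and 5.19% had more than 3 in constriction replicate 2, so nothing about the 29 genes is read from them.

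**Figure D3:**
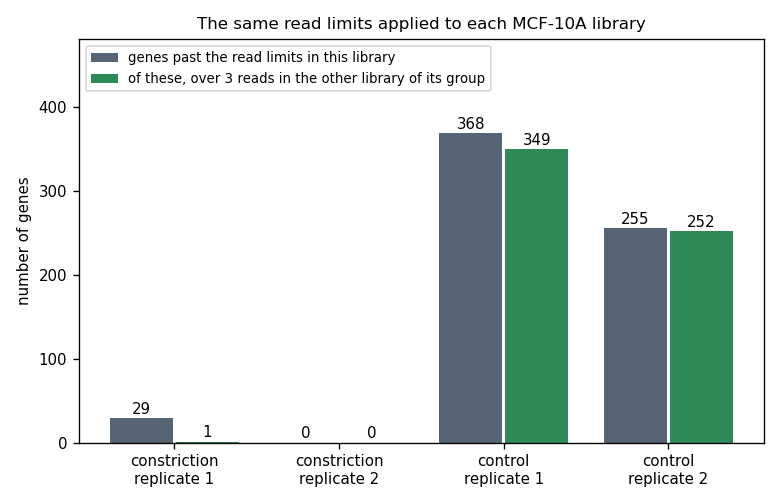
Number of listed MCF-10A genes with 50 or more reads in a library and at most 3 in both libraries of the other group (grey), and how many of these had over 3 reads in the other library of the same group (green). The 29 genes of constriction replicate 1 left 1 gene, the 368 and 255 genes of the control libraries left 349 and 252, and constriction replicate 2 had none.

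CDRT4, a protein-coding gene of the chromosome 17 region duplicated in Charcot-Marie-Tooth disease type 1A, had 434 and 27 reads in the constriction libraries and 1 and 3 in the controls. It was the only one of the 29 genes with more than 3 reads in constriction replicate 2. The 95% exact Poisson interval of the 27 reads was 17.8 to 39.3. Per normalised count, constriction replicate 2 was 16.0 times the controls (95% counting interval 5.57 to 62.9), but the low controls were part of the choice. Constriction replicate 1 was 18.7 times constriction replicate 2 (12.7 to 28.7). CDRT4 (GRCh38, chr17:15436015-15503608, minus strand) shares exon bases on the same strand with TVP23C and with the readthrough gene TVP23C-CDRT4, so the reads of these genes can be split by the counting.

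Protein-coding genes made up 11 of the 29 (37.9%), against 53.2% of the 2233 listed genes whose biotype and name the choice allowed. Among them were DACH2 and HOXA7, which encode transcription factors, the zinc finger gene ZFP3, a potassium channel and a transporter, and each fixed list of gene families that held any of them held 1. Their reads in constriction replicate 1 ran from 187 (SLC5A12) to 501 (DACH2), with a median of 275.

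HOXA7 encodes a homeobox transcription factor. Constriction replicate 1 held 286 reads of it, and constriction replicate 2 and both controls held 0. As a mean of the 2 constriction libraries it was at least 65.0-fold above 3 reads per control library. HOXA7 (chr7:27153716-27157936, minus strand) shares exon bases with HOXA-AS3, which lies on the opposite strand and was at 0 reads after transit, with 16 and 26 reads in the controls. Of 12 listed homeobox genes, HOXA7, chosen for its reads, was the 1 with reads after transit, and 92.9% and 92.5% of all listed genes had 0 reads in the constriction libraries. The other 11 homeobox genes were at 0 after transit, with 9 to 81 reads in the controls, HOXB6 among them with 17 and 27.

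DACH2, which encodes a transcription factor of the dachshund family, had 501 reads in constriction replicate 1 and 0 in the other 3 libraries. It lies on the X chromosome (chrX:86148458-86832604, plus strand) and was at least 114-fold higher in the constriction mean than 3 reads per control library. ZFP3 had 275 reads in constriction replicate 1 and 0 in the other 3 libraries. PPP1R3A, the subunit that directs protein phosphatase 1 to glycogen in muscle, had 343 reads there and 0 in the other 3. These genes were high in 1 library and at 0 in the rest.

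KCNA10, a voltage-gated potassium channel, had 289 and 0 reads in the constriction libraries and 2 and 1 in the controls. The constriction group was 123 times the control group in reads per size factor (95% counting interval 41.6 to 599). SLC5A12, a sodium-coupled transporter of lactate, had 187 reads in constriction replicate 1, the fewest of the 29, and 0 in the other 3 libraries. KCNA10 was 1 of 22 listed ion channel genes and SLC5A12 1 of 40 listed solute carriers and ABC transporters. In these lists 21 and 37 genes had 0 reads in both constriction libraries. Of all listed genes, 92.9% had 0 reads in constriction replicate 1 and 92.5% in constriction replicate 2, so nothing is read from these counts.

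LGALS4, a galectin of the gut epithelium, had 246 and 0 reads after transit, against 1 and 2 in the controls. CYTH4, a cytohesin that activates ARF GTPases, had 267 and 0 reads after transit, against 0 and 2 in the controls. RGS6, a regulator that ends signals of G proteins, had 214 and 0 reads after transit, against 1 and 0 in the controls. FRRS1L, a partner of AMPA receptors in neurons, had 243 and 0 reads after transit, against 1 and 0 in the controls. For all 4 genes, constriction replicate 2 lay at or below the controls.

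The lists of ZNF genes (30 listed), nuclear envelope and pore genes (3), olfactory receptors (2), cadherins and protocadherins (25), histones (8), cilium genes (24), cytokines, chemokines and their receptors (28), proteases and their inhibitors (19) and G protein coupled receptors (13) held none of the 29 genes. No immunoglobulin or T cell receptor segment was listed.

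Promoter sequences were available for 10 of the 29 genes, as 13 RefSeq start sites (GRCh38.p14, 250 bases before to 50 after the start). They are shown for HOXA7 and PPP1R3A because these genes had the same pattern of reads with promoters of opposite base composition. Capitals mark, on either strand, 3 motifs: the TATA box (TATAAA), the CCAAT box with the letters of its name, and the GC box (GGGCGG).

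HOXA7 promoter, chr7:27156626-27156925, minus strand: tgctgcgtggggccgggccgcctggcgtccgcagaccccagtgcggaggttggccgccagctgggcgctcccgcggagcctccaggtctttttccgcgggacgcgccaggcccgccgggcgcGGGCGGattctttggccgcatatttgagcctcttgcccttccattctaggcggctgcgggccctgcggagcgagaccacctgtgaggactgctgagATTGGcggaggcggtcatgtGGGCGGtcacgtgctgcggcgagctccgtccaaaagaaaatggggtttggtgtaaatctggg

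PPP1R3A promoter, chr7:113918960-113919259, minus strand: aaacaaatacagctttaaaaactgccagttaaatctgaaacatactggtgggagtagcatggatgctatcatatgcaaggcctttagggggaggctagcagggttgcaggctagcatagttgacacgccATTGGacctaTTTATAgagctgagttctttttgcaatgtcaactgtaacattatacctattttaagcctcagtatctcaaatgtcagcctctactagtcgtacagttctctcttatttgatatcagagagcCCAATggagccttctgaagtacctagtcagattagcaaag

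The HOXA7 promoter held 68.0% G and C with 31 CpG dinucleotides, and that of PPP1R3A 41.3% with 2. Over the 13 start sites the share of G and C ran from 37.0% to 68.0% with a median of 52.3%, against a median of 58.7% over all 35116 promoters of the RefSeq table. The TATA box was found in 3 of the 13 (23.1%) and in 11.5% of all promoters, the CCAAT box in 6 (46.2%) and 34.6%, and the GC box in 5 (38.5%) and 45.0%. The 13 start sites belong to 10 genes, 3 of them to RGS6 and 2 to DACH2, and no test was made. The matches describe letters in these windows.

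The other 18 genes are not annotated as protein-coding. They were 8 lincRNAs (27.6%, against 10.7% of the listed genes that the choice allowed), 6 antisense RNAs (20.7% against 17.8%), 3 genes of the GENCODE class TEC, whose transcripts still await an experimental test (10.3% against 2.96%), and 1 unprocessed pseudogene (3.45% against 2.42%). The choice took only genes with at most 3 reads in each control, and most of the compared genes had no such limit. The part of that limit in the biotype shares, that of protein-coding genes included, was not tested. The median of the 18 genes in constriction replicate 1 was 485 reads, with a range of 205 to 913. Of the 12 genes of the 29 with 400 or more reads, 10 were among these 18. The exceptions were DACH2 and CDRT4.

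AL133492.1, a single-exon RNA antisense to PCBP3, had 913 reads in constriction replicate 1, the most of the 29, and 0 reads in the other 3 libraries. BX322234.1 had 734 and 0 reads after transit, against 3 and 0 in the controls. It overlaps the end of THBS2 on the opposite strand, and THBS2, which encodes thrombospondin 2, was at 0 reads after transit, with 16 and 8 in the controls. AC009970.1 (569 and 0 reads after transit, 2 and 0 in the controls) overlaps BCL11A on the opposite strand. AL162385.2 (491 and 0 after transit, 2 and 3 in the controls) lies antisense to NCBP1. AL592161.1 had 269 reads in constriction replicate 1, 0 in the other 3 libraries, and shares exon bases with WDR78 on the opposite strand. AC087749.2, antisense to SAP30BP, had 206 and 0 reads after transit, against 0 and 2 in the controls. Only THBS2 and HOXA-AS3, of the genes that overlap one of the 29, were listed in the MCF-10A table, and both were at 0 reads after transit. The study's methods describe a directional and a non-directional library without saying which was made, so the strand of origin of reads in overlapping genes is uncertain.

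Among the lincRNAs, AL353651.3 had 567 reads and AP000851.2 had 490 reads in constriction replicate 1, and both had 0 in the other 3 libraries. AL662890.1 had 520 and 0 reads after transit and 3 in each control, the highest control level of the 29. MIR4500HG, the host gene of the miRNA MIR4500, had 488 and 0 reads after transit, against 3 and 1 in the controls. HCG17 (267 reads), AL137802.2 (217) and AP002793.1 (205) had reads in constriction replicate 1 only.

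TERC, the RNA that serves as the template of telomerase, had 238 and 0 reads after transit, against 1 and 0 in the controls. The constriction group was 303 times the control group, with a 95% counting interval from 53.9 to 12027 that rests on 1 control read. TERC is annotated as a single exon of 541 bases (chr3:169764520-169765060, minus strand), and a second annotation of the same RNA, RF00024, shares its bases. The RNA ends without a long poly A tail, and the libraries were made by poly A enrichment.

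The 3 TEC genes were Z99129.3, AC099811.6 and AP001525.1. Z99129.3 had 511 and 0 reads after transit, against 2 and 0 in the controls, and shares exon bases with PKIB on the same strand. AC099811.6 had 482 and 0 reads after transit, against 0 and 3 in the controls, and lies in the span of STAT5B on the opposite strand. AP001525.1 had 227 reads in constriction replicate 1 and 0 in the other 3 libraries, and lies on the strand of FAM210A within its span. FP325317.1, a pseudogene of the aquaporin gene AQP7, had 272 and 0 reads after transit and 1 in each control.

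FP325317.1 had 50.2% of its windows of 50 bases in transcripts of genes that do not overlap it, AQP7 and its other pseudogenes, so its reads may be shared with them. For 22 of the 29 genes no such window was found in a gene elsewhere.

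AL162385.2, which had the highest level per length, is an RNA of 285 bases in 3 exons (chr9:97634515-97636051, minus strand), and none of its windows of 50 bases was found in another gene.

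AL162385.2: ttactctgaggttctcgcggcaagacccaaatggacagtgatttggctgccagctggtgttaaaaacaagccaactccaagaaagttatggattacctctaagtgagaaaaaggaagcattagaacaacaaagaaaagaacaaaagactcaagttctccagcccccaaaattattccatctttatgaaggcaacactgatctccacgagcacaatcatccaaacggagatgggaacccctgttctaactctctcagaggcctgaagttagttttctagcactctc

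The genes differed far more in length than in reads. Gene length, the bases covered by exons, ran from 236 (AP001525.1) to 15559 (FRRS1L), a 65.9-fold range, whereas reads in constriction replicate 1 covered a 4.88-fold range. The other listed genes of the allowed biotypes and names with a higher mean after transit numbered 64. Over them length covered a 112-fold range and reads a 25.1-fold range. How far the choice of the genes narrowed their reads was not tested. Spearman's rho between length and reads was -0.06 over the 29 genes and 0.05 over the other 118 genes with a higher mean after transit. These are descriptions across genes of 1 library, and genes are not independent replicates. The 3 shortest genes, AP001525.1, AL162385.2 (285 bases) and AC087749.2 (352 bases), had 227, 491 and 206 reads. The 3 longest, FRRS1L, RGS6 (8937 bases) and SLC5A12 (7544 bases), had 243, 214 and 187 reads.

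Because FPKM divides reads by length, and reads hardly varied with length, the level per length was lower in longer genes by construction. It was highest for AL162385.2 at 57.5 FPKM and lowest for FRRS1L at 0.521 FPKM. The median was 2.37 FPKM over the 11 protein-coding genes and 12.1 FPKM over the 18 others, whose median lengths were 5206 and 920.5 bases. HOXA7 had 3.96 FPKM and TERC 14.7 FPKM in constriction replicate 1. The median length of the 29 genes was 1638 bases, against 2626 bases for the 2233 listed genes of the allowed biotypes and names and 2848 bases for the 64 of these, outside the 29, with a higher mean after transit. With all biotypes and names kept, the median length of the genes past the read limits was 1027 bases. The share of G and C in the longest transcript had a median of 46.3%, against 49.9% for the 2233 genes.

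**Figure D4:**
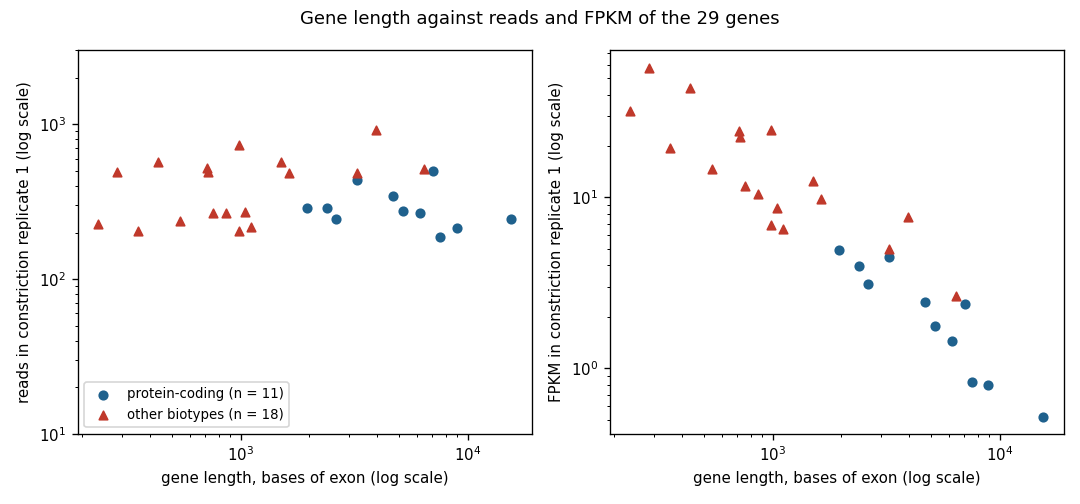
Gene length (bases of exon, log axis) against reads (left) and FPKM (right) in constriction replicate 1, both on log axes, for the 11 protein-coding genes (circles) and the 18 other genes (triangles). Reads stay between 187 and 913 over the whole range of lengths, and FPKM runs from 57.5 in a short gene to 0.521 in the longest.

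The reads in constriction replicate 1 left gaps between bands, which were drawn after the values were seen. Of the 29 genes, 16 had 187 to 289 reads, 1 (PPP1R3A) had 343, 10 had 434 to 569, and 2 had 734 and 913. Of the 11 protein-coding genes, 8 lay in the lowest band. Among the other 118 genes, 23 had fewer than 300 reads, 17 had 300 to 399, 53 had 400 to 599 and 25 had 600 or more.

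The 29 genes lay on 15 chromosomes, with at most 4 on one (chromosomes 1, 6 and 17) and 1 on each of 9 chromosomes. The nearest pair, AL662890.1 and HCG17 on chromosome 6, stood 1.4 megabases apart, and the next, ZFP3 and CDRT4 on chromosome 17, 10.3 megabases apart. A single exon made up 6 of the 29 genes (20.7%), against 19.9% of the 2233 listed genes of the allowed biotypes and names. The span of a protein-coding gene enclosed 8 genes (27.6% against 22.3%), and 8 shared exon bases with another gene (27.6% against 47.1%). No test was made of these shares.

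The limit of 50 reads did not bind, since no listed gene with at most 3 reads in both controls had fewer than 50 in constriction replicate 1. The 3 genes with the fewest reads were SLC5A12 (187), AP002793.1 (205) and AC087749.2 (206). Just inside the control limit stood AL662890.1 with 3 reads in each control. Just outside it stood AC026401.2 with 372 and 0 reads after transit and 1 and 4 in the controls, AC022540.1 with 351 and 0 after transit and 2 and 4 in the controls, and GPR61, a G protein coupled receptor, with 331 and 22 after transit and 2 and 4 in the controls. Of the 12 genes of the allowed biotypes and names with a higher mean after transit whose larger control count was 4 or 5, 10 had 0 reads in constriction replicate 2.

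None of the 29 genes was listed for MDA-MB-231 (381 genes) or LM2 (97 genes), which shared 48 and 12 genes with the MCF-10A table. Their reads in those cell lines were not analysed here. Applied to those tables, the read limits chose no gene in any constriction library, and in LM2 control replicate 1 they chose 2 genes, both with 0 reads in control replicate 2.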

How the data were processed

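The deposited RNA sequencing tables of MCF-10A, MDA-MB-231 and LM2 cells hold 2 constriction and 2 control libraries per cell line. Per the submitters' processing notes, reads were filtered with fastp, aligned with HISAT2 2.0.5 and counted per gene with featureCounts 1.5.0-p3, and these are the deposited counts. The deposited normalised counts (signal) are the authors' counts over a DESeq2 1.20.0 size factor, set within each cell line. The authors' FPKM values follow from counts and gene lengths. The tables list only genes with an unadjusted p under 0.05 in the authors' comparison. The study's methods instead give an adjusted p of at most 0.05 as the limit, and its results count 2680 MCF-10A genes as differentially expressed. Their fold changes, p-values, group means and GO term lists were not used. Identifiers and positions of all 2680 MCF-10A genes matched GENCODE 29 of GRCh38, which gave exons, overlaps and transcripts.

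The genes and the lists were chosen with earlier results of these data known. Library totals were computed from counts, FPKM and gene length. The counts of all listed genes were fitted with edgeR 4.0.16 (glmQLFit and glmQLFTest, deposited size factors, two-sided, adjusted p under 0.05 by Benjamini-Hochberg over the listed genes), and the script was tested on simulated data. DESeq2 1.42.0 and limma 3.58.1 (log2 of normalised count + 1) were alternatives, as were TMM factors, a mean normalised count of at least 10, the replicate block, other read limits and each library left out. The study lists the control and constriction cells of each replicate experiment together, so equal numbers were taken as pairs. The correlation of the deviations of equal numbers from their group means was -0.04 over all listed MCF-10A genes and -0.11 over the 1209 whose normalised counts averaged 10 or more. The study's methods call the 2 libraries of each group biological replicates. For LM2, constriction replicate 2 was numbered by its title, and its description gives 1.

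Named were the 10 genes with the most reads, those with over 3 reads in constriction replicate 2, HOXA7 as named by the study, the 3 fewest in reads, 3 just outside the limit, the 3 longest and shortest, and members of the lists. The other genes of the 29 were named in addition. One sequence is not reported here.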

Additional observations from a re-analysis of the deposited data

How the results depend on the processing

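A minimum of 30 or 100 reads, and limits on normalised counts, left the 29 genes, the 1 with more than 3 reads in constriction replicate 2, the 11 protein-coding genes and the median length of 1638 bases as they were. The minimums of 30 and 100 could change nothing. No listed gene within the control limit had fewer than 50 reads in constriction replicate 1, and the 29 had 187 or more. With 0 reads required in each control, 13 genes were left, 0 with more than 3 reads in constriction replicate 2 and 5 protein-coding. With up to 10 control reads there were 50 genes, 5 and 24. With all biotypes and names kept there were 50 genes and 3, and the median length was 1027 bases. With the limit on 1 control library alone there were 36 to 42 genes, 1 to 4 with more than 3 reads in constriction replicate 2, and 16 to 19 protein-coding.

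Of the listed genes, edgeR called 68 higher after transit, among them the 29. DESeq2 called 125 and 29, TMM factors gave 50 and 22, a minimum mean normalised count of 10 gave 28 and 14, limma 10 and 0, and adjustment over 62700 annotated genes 0 and 0. At an unadjusted p under 0.05, edgeR gave 73 and 29, and limma gave 14 and 1. The paired fit with the replicate block called 1 and 0, with 1 and 0 at an unadjusted p under 0.05. The crossed replicate block, added after the data were seen, called 2 and 1. With each library left out in turn, 1 to 142 listed genes and 0 to 29 of the 29 were called. Without constriction replicate 1, whose reads chose the genes, 1 of the 29 was called, and without either control none was. In each such fit the lone library was assumed to vary like the other group. The log2 differences depended on the pseudocount, with 6.03 to 9.11 at 1, 6.39 to 10.1 at 0.5 and 3.62 to 5.81 at 10. They stayed above 0 for all 29 at these pseudocounts and without constriction replicate 2, control replicate 1 or control replicate 2. This follows from the choice of the genes by high reads in constriction replicate 1 and low reads in the controls. Without constriction replicate 1, 15 of the differences lay below 0, 13 were 0 and 1 lay above 0. The cause of these changes was not tested.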
